A study of Mus musculus with 6 samples.

Results

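The 10 genes described here encode glutathione transferases, and all 10 were found on the array among 19938 genes with a probe set that the array annotation gives to 1 gene symbol. They were chosen by name, as Gsta3, Gsta4, Gstm1, Gstm2, Gstm5, Gstp1, Gstt1, Gsto1, Mgst1 and Mgst3, and each had exactly 1 such probe set. RNA came from untreated mouse embryonic fibroblasts (MEFs), with 3 arrays of H2AX knockout (KO) cells and 3 arrays of wild-type (WT) cells, which the series also calls parental. H2AX is the histone variant that is phosphorylated around DNA double-strand breaks, and the study asked which genes of oxidative metabolism were altered without it. The study calls the arrays of a genotype independent replicates, but the sources used here do not say whether they came from separate embryos or cultures, or whether each line is a single clone, so that every p-value here reflects how far the 6 arrays scatter, and an effect of H2AX cannot be told apart from other differences between the lines.

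Glutathione transferases join the tripeptide glutathione to reactive, electron-poor compounds, which can then be carried out of the cell. The soluble enzymes fall into classes named by Greek letters, among them alpha (Gsta), mu (Gstm), pi (Gstp), theta (Gstt) and omega (Gsto), and the membrane-bound ones (Mgst) belong to a separate family that also makes leukotrienes and prostaglandins. Many of these genes are known targets of NRF2, the transcription factor that drives antioxidant genes through the antioxidant response element (ARE).

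Values are log2 expression values, on which a difference of 1 is a 2-fold change, and a gene was called when limma gave an adjusted p under 0.05, the adjustment running over all 19938 genes. Of the 10 glutathione transferase genes, 3 were higher in KO cells (Gsta4, Gstm5 and Gstt1), 3 were lower (Gstm2, Gsto1 and Mgst3) and 4 did not pass the test (Gsta3, Gstm1, Gstp1 and Mgst1). Over all genes, 33.4% were called in the same comparison, 18.4% higher and 15% lower. With a fold change over 2 in addition, the thresholds of the study's methods, 2 were higher (Gstm5 and Gstt1) and 1 was lower (Gstm2), where 5.3% of all genes passed, 2.12% higher and 3.18% lower. The median log2 fold change of the 10 genes was 0.01, against 0.02 for all genes, with changes in both directions among the 10. The 6 genes that passed were also those in which the 3 KO arrays did not overlap the 3 WT arrays, which held for 44.8% of all genes, 25.3% with KO higher and 19.5% with KO lower. With 3 arrays of each genotype, the smallest p of an exact permutation test on a single gene is 0.1.

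The targeted gene was checked first. H2ax had log2 values of 7.69, 7.77 and 7.67 on the KO arrays, against 8.96, 9.18 and 9.003 on the WT arrays, a log2 fold change of -1.34 (95% confidence interval -1.51 to -1.17, limma, adjusted p = 5.8e-07). The KO signal was 2.53-fold below that of WT cells and stayed above the array medians, which lay between 6.06 and 6.12 over all 6 arrays. Whether the probes lie within the deleted part of the gene is not given in the sources used here, so that these values do not settle whether the transcript was lost. The label of fibroblasts was checked against 14 fibroblast markers, whose mean log2 level lay between 10.54 and 10.59 on KO arrays and between 10.13 and 10.20 on WT arrays. Of these, 7 were higher and 5 were lower in KO cells, where 33.4% of all genes were called in either direction. Some of these differences were large, with log2 fold changes of 4.03 for Thy1, a surface glycoprotein, 1.70 for Pdgfrb, a growth factor receptor, and -2.15 for Dcn, a matrix proteoglycan, and Vim and Lum did not pass. The part of these differences between the lines in the values below was not tested. The mean levels of epithelial, leukocyte, endothelial, adipocyte and hepatocyte markers lay between 4.96 and 5.42 on KO arrays and between 5.09 and 5.31 on WT arrays, with 1 of 8 epithelial markers higher, 1 higher and 1 lower of 8 leukocyte markers, 2 of 7 endothelial markers lower and 0 of 7 adipocyte and 0 of 6 hepatocyte markers past the test. In bulk RNA, fewer cells of a kind and less RNA per cell cannot be told apart.

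Promoter sequences are shown for the gene with the largest fall and for the 2 genes past a 2-fold rise, since NRF2 acts at promoters of this family and its own transcript was lower in KO cells. RefSeq promoter windows on the mouse build GRCm38.p6, running from 250 bases before to 50 bases after the annotated start, were held for 9 of the 10 genes, and Gsta4 had none. Each was searched on both strands for the ARE core, spelled TGACNNNGC or TGAGNNNGC, and matches are printed in capitals. The Gstm2 window lies at chr3:107986371-107986670 on the minus strand, that of Gstm5 at chr3:107895604-107895903 on the plus strand and that of Gstt1 at chr10:75797682-75797981 on the minus strand.
Gstm2: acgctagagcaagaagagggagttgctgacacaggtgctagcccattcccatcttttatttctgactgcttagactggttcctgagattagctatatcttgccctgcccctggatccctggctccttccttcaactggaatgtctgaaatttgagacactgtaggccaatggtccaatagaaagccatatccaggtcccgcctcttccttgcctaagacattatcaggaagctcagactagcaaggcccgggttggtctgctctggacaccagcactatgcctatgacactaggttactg
Gstm5: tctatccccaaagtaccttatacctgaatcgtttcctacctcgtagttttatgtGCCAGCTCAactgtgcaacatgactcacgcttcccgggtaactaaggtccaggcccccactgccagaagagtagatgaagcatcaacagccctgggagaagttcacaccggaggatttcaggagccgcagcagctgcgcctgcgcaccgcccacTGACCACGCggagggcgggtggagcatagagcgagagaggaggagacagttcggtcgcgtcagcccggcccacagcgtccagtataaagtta
Gstt1: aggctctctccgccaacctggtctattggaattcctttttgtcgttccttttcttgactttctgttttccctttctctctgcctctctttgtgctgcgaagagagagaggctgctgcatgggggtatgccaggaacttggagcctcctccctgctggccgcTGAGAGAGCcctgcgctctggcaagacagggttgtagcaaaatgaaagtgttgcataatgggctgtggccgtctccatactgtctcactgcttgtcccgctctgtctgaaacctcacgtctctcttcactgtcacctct
Gstm5 held a match of each spelling, TGACCACGC on its own strand and GCCAGCTCA, which reads as TGAGNNNGC on the opposite strand. Gstt1 held TGAGAGAGC, and Gstm2 held none in this window. Among the other members, Gsta3 held TGACATTGC, Mgst1 held GCACGGTCA on the opposite strand at the first of its 2 annotated starts, and Gstp1 held TGAGTCAGC and, on the opposite strand, GCGTCCTCA. Thus 5 of the 9 genes held a match of either spelling, of which 2 were higher in KO cells and 3 did not pass the test, and the windows of the 3 members that were lower held none. Of 18 relatives with a window, 7 held a match, among them Ptges, which was lower in KO cells and held GCCTACTCA on the opposite strand, and Gstm7 and Gstt4, which were higher. Of all 27025 genes with a RefSeq window, 30.8% held a match. A match is a run of letters and not a measured binding site. Sequence outside these windows was not searched, so a window without a match does not show that a gene lacks an ARE.

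**Figure D1:**
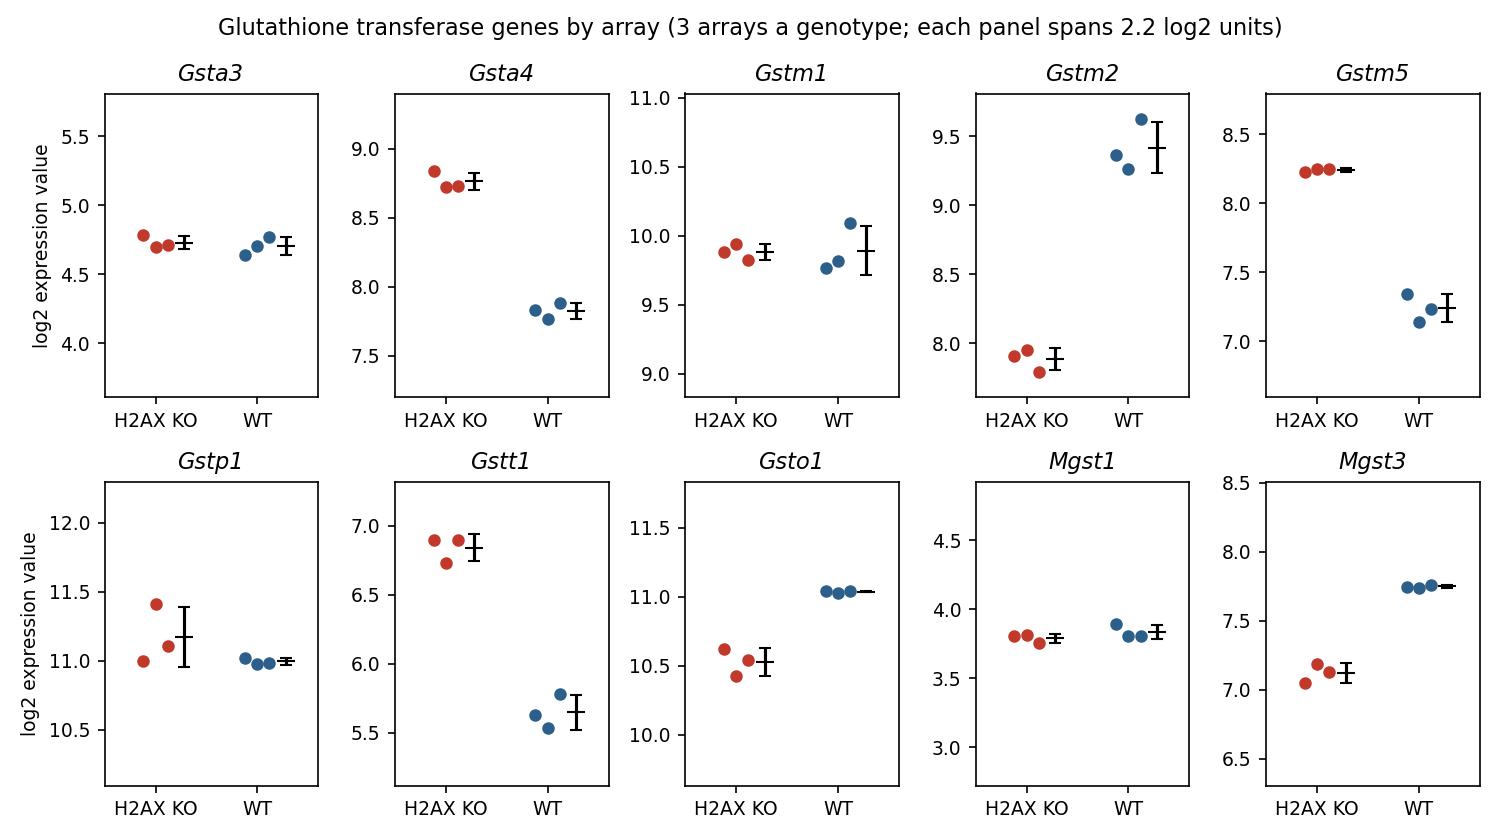
Log2 expression values (y axis) of the 10 glutathione transferase genes on the 3 H2AX KO arrays (red) and the 3 WT arrays (blue), with the mean and SD of each genotype beside the points, all panels spanning an equal range of log2 values. KO points lie above WT points for Gsta4, Gstm5 and Gstt1 and below them for Gstm2, Gsto1 and Mgst3, and the points overlap in the other 4 genes.

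Mu class genes changed in opposite directions. Gstm2 (probe set 10501222), a mu class enzyme that conjugates quinones made from catecholamines, had the largest fall of the 10. Its log2 values were 7.91, 7.95 and 7.80 on the KO arrays, against 9.37, 9.26 and 9.62 on the WT arrays. All KO values lay below 8 and all WT values above 9, with WT replicate 3 the highest. This was a log2 fold change of -1.53 (95% confidence interval -1.75 to -1.32, limma, adjusted p = 1.2e-06), a size of 2.896-fold, and 97.4% of all genes had a smaller change in either direction. Gstm5 (probe set 10495243), a mu class enzyme known mainly from brain and testis, moved the other way. It had log2 values of 8.23, 8.25 and 8.25 on the KO arrays, against 7.35, 7.14 and 7.24 on the WT arrays. The KO arrays were closely spaced, with an SD of 0.01 against 0.10 in WT cells. The log2 fold change was 1.00 (95% confidence interval 0.85 to 1.16, limma, adjusted p = 2.6e-06), which lies on the 2-fold threshold itself. Gstm1 (probe set 10501229), the mu class enzyme most studied for conjugation of polycyclic carcinogens, had log2 values of 9.88, 9.94 and 9.83 on the KO arrays, against 9.77, 9.82 and 10.10 on the WT arrays. The genotypes overlapped, and again WT replicate 3 stood highest. Its log2 fold change was -0.01 (95% confidence interval -0.21 to 0.19, limma, adjusted p = 0.948) and turned to 0.03 when array medians were centred, so that no direction can be given.

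The theta and alpha classes held the other increases. Gstt1 (probe set 10370000), a theta class enzyme that acts on small halogenated compounds, had log2 values of 6.90, 6.73 and 6.89 on the KO arrays, against 5.63, 5.54 and 5.78 on the WT arrays. The lowest KO array thus stood well above the highest WT array. The log2 fold change was 1.19 (95% confidence interval 1.01 to 1.38, limma, adjusted p = 2.6e-06), a size of 2.29-fold and the largest rise of the 10 genes. Gsta4 (probe set 10587315), the alpha class enzyme specialised in 4-hydroxynonenal, an aldehyde from oxidised lipids, had log2 values of 8.84, 8.73 and 8.73 on the KO arrays, against 7.83, 7.77 and 7.88 on the WT arrays. The spread within either genotype was small beside the gap, with SDs of 0.06 in KO and 0.06 in WT cells. Its log2 fold change was 0.94 (95% confidence interval 0.79 to 1.09, limma, adjusted p = 2.7e-06), a size of 1.92-fold. Gsta3 (probe set 10345065), an alpha class enzyme that in other mammals isomerises steroid precursors, lay low on the array scale, with a mean above that of 18.6% of genes. Its log2 values were 4.78, 4.69 and 4.71 on the KO arrays, against 4.64, 4.70 and 4.77 on the WT arrays. These overlapped fully, with a log2 fold change of 0.02 (95% confidence interval -0.12 to 0.17, limma, adjusted p = 0.833).

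Of the omega and pi classes, Gsto1 fell and Gstp1 did not pass the test. Gsto1 (probe set 10463836), an omega class enzyme that reduces dehydroascorbate and removes glutathione from proteins, had log2 values of 10.62, 10.42 and 10.54 on the KO arrays, against 11.04, 11.03 and 11.04 on the WT arrays. The WT arrays were almost identical, with an SD of 0.01 against 0.10 in KO cells. Gsto1 had a log2 fold change of -0.51 (95% confidence interval -0.66 to -0.36, limma, adjusted p = 0.00027), a size of 1.42-fold. Gstp1 (probe set 10464583), the pi class enzyme that also binds the stress kinase JNK, had log2 values of 10.998, 11.41 and 11.11 on the KO arrays, against 11.02, 10.98 and 10.99 on the WT arrays. KO replicate 2 stood above the rest, whereas KO replicate 1 lay within the WT range. The log2 fold change was 0.18 (95% confidence interval -0.05 to 0.40, limma, adjusted p = 0.225), and it was 0.06 without KO replicate 2. A further 2 probe sets are given to both Gstp1 and Gstp2, a near-identical neighbour, and were assigned to neither, and how far the Gstp1 probe set also reads Gstp2 was not tested.

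Among membrane-bound enzymes, Mgst3 (probe set 10359861), which reduces lipid peroxides with glutathione and can make leukotriene C4, was lower in KO cells. Its log2 values were 7.05, 7.19 and 7.13 on the KO arrays, against 7.75, 7.74 and 7.76 on the WT arrays. No KO value came within the WT range, which was narrow, with an SD of 0.01 against 0.07 in KO cells. The log2 fold change was -0.63 (95% confidence interval -0.77 to -0.49, limma, adjusted p = 3.6e-05), a size of 1.54-fold. Mgst3 is also in the study's own list of redox genes, which was drawn up on these same arrays and is no separate evidence of its direction. The study describes that list as taken from genes past a 2-fold change, but Mgst3 lies below 2-fold both there and here. Mgst1 (probe set 10542470), the main microsomal transferase of liver, had log2 values of 3.804, 3.82 and 3.75 on the KO arrays, against 3.89, 3.804 and 3.81 on the WT arrays. Only 1.58% of genes had a lower mean, and the log2 fold change was -0.04 (95% confidence interval -0.18 to 0.09, limma, adjusted p = 0.662).

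**Figure D2:**
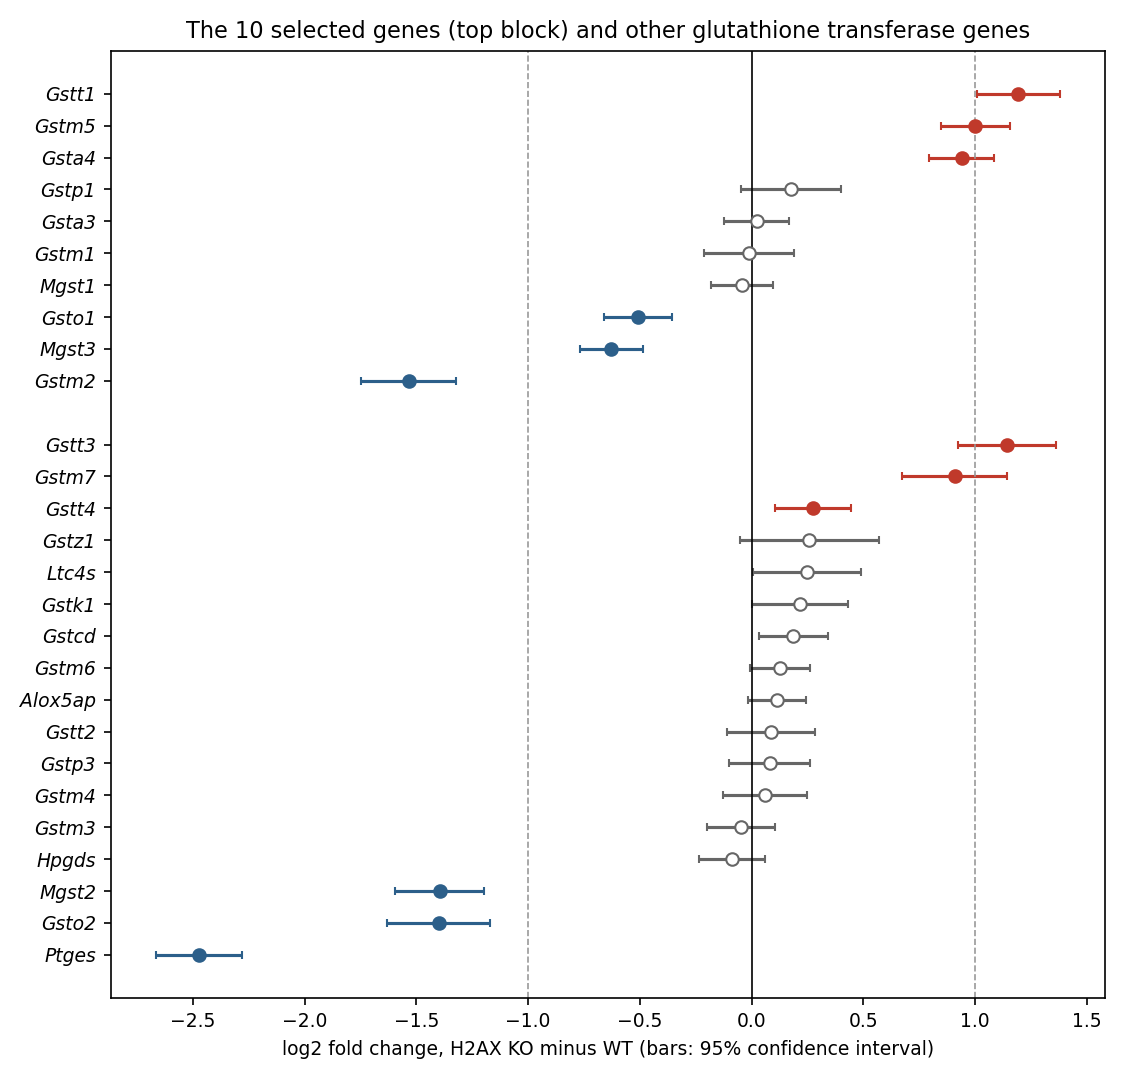
Log2 fold change of H2AX KO minus WT MEFs (x axis) for the 10 chosen genes (top block) and for 17 other glutathione transferase genes and relatives (lower block), each point with a bar for its 95% confidence interval from limma. Filled red points were called higher, filled blue points lower and open points did not pass; the chosen genes run between -1.53 for Gstm2 and 1.19 for Gstt1, and Ptges lies lowest of all at -2.47.

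Other genes of the family were also called in both directions. Of 22 further glutathione transferases and relatives listed, 17 had a probe set of their own, and of these 3 were higher in KO cells (Gstt3, Gstm7 and Gstt4), 3 were lower (Ptges, Gsto2 and Mgst2) and 11 did not pass the test. These counts lie near the shares over all genes, where 33.4% were called, 18.4% higher and 15% lower. The higher count was 5 without KO replicate 2 or without WT replicate 3. Their median log2 fold change was 0.11, against 0.02 over all genes. The remaining 5, Gsta1, Gsta2, Gsta5, Gsta13 and Gstp2, lacked a probe set of their own.

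The largest change of these was in Ptges, the membrane enzyme that makes prostaglandin E2 and a relative of the Mgst genes. Ptges had log2 values of 6.31, 6.097 and 6.38 on the KO arrays, against 8.64, 8.81 and 8.75 on the WT arrays, which did not come near each other. Its log2 fold change was -2.47 (95% confidence interval -2.67 to -2.28, limma, adjusted p = 2.2e-08). Mgst2, a microsomal enzyme that makes leukotriene C4 outside blood cells, had log2 values of 6.14, 6.16 and 5.99 on the KO arrays, against 7.38, 7.67 and 7.42 on the WT arrays, a log2 fold change of -1.40 (adjusted p = 1.5e-06). Together with Mgst3, 3 measured members of the membrane-bound family were therefore lower, whereas Ltc4s, Alox5ap and Mgst1 did not pass the test, at 0.25, 0.11 and -0.04. Ltc4s had 0.34 without WT replicate 3 (adjusted p = 0.044), and Alox5ap passed with the unmoderated ANOVA (adjusted p = 0.033). Of the remaining classes, Gstz1, which isomerises maleylacetoacetate in tyrosine breakdown, had a log2 fold change of 0.26 (limma, adjusted p = 0.202), the kappa class gene Gstk1 of 0.22 (adjusted p = 0.118) and Hpgds, the sigma class prostaglandin D synthase, of -0.09 (adjusted p = 0.373). Single arrays moved some of these values past the threshold, with Gstz1 at 0.40 without WT replicate 3 (adjusted p = 0.041) and Gstk1 at 0.31 without KO replicate 2 (adjusted p = 0.013), whereas their lowest values with an array left out were 0.12 and 0.11. Gstcd, a gene with a glutathione transferase-like domain, had 0.19 (adjusted p = 0.061), its KO arrays lying above its WT arrays, and it passed at 0.22 without KO replicate 2 (adjusted p = 0.034). Gstcd also passed after quantile normalization or median centring (adjusted p = 0.034 and 0.037). Gstp3, of the pi class, had 0.08 (adjusted p = 0.521), and 0.01 without KO replicate 2. Gstk1 and Hpgds lay low on the array scale, with means above 11.02% and 14.93% of genes.

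The classes that sit in clusters were then followed along the chromosome. The 7 mu class genes lie side by side on chromosome 3, with no other coding gene among them, in the order Gstm5, Gstm7, Gstm6, Gstm3, Gstm2, Gstm1 and Gstm4. At one end Gstm5 and Gstm7 were both higher, at log2 fold changes of 1.00 and 0.91 (limma, adjusted p = 0.0001 for Gstm7). Gstm7 had log2 values of 7.15, 7.26 and 7.36 on the KO arrays, against 6.11, 6.49 and 6.45 on the WT arrays. Gstm2 was lower between 2 neighbours that did not pass, Gstm3 at -0.05 and Gstm1 at -0.01, and Gstm6 and Gstm4 did not pass either, at 0.13 and 0.06, although Gstm6 passed with the unmoderated ANOVA (adjusted p = 0.046). Gstm6 lay low on the array scale, with a mean above 8.26% of genes. Gstm3 turned to 0.05 when its 2 probe sets were averaged. The value of -0.05 is from probe set 10362511, which had the higher mean. The other, 10501218, had log2 values of 5.76, 5.68 and 5.58 on the KO arrays, against 5.26, 5.58 and 5.72 on the WT arrays. Within each array, the log2 value of Gstm2 minus that of Gstm1 was -1.97, -1.99 and -2.03 in KO cells, against -0.40, -0.55 and -0.47 in WT cells. This gap between neighbours thus changed by -1.52, with p = 0.1 by an exact two-sided permutation test, the smallest it can give, and 0.143 after adjustment over 10 pairs of neighbours. Of these 10 pairs, 7 had no overlap between the genotypes and gave the same p, also where the gap changed little, as by 0.18 for Gstm6 and Gstm3. For Gstm5 and Gstm7 the gap changed by 0.09 (exact permutation p = 0.7). Members of the mu class are alike in sequence, and the part of cross-hybridisation between their probe sets was not tested.

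The 4 theta class genes lie on chromosome 10 in the order Gstt3, Gstt1, Gstt4 and Gstt2. Gstt3 had log2 values of 6.98, 6.68 and 6.82 on the KO arrays, against 5.56, 5.64 and 5.84 on the WT arrays, and a log2 fold change of 1.14 (limma, adjusted p = 1.2e-05), next to 1.19 for Gstt1. The gap between Gstt3 and Gstt1 changed by -0.05 (exact permutation p = 0.6), and how far their probe sets read each other's transcript was not tested. Gstt4 was called higher at 0.27 (limma, adjusted p = 0.019), a call that was lost without KO replicate 3 or WT replicate 2 (adjusted p = 0.081 and 0.076) and with the one-way ANOVA of the methods without moderation (adjusted p = 0.079), and Gstt2 had 0.09 (adjusted p = 0.528). The increase in this cluster was largest at the end with Gstt3 and Gstt1. Levels differed as well, with means above 48.1% and 48.0% of genes for Gstt3 and Gstt1. Gstt4 and Gstt2 lay low on the array scale, above 25.5% and 17.0%. The part of signal level in this pattern was not tested. On chromosome 19, Gsto1 and Gsto2 were both lower. Gsto2, a second dehydroascorbate reductase, had log2 values of 5.34, 5.37 and 5.43 on the KO arrays, against 6.53, 6.94 and 6.87 on the WT arrays. This was a log2 fold change of -1.40 (limma, adjusted p = 4.1e-06), and the gap between Gsto1 and Gsto2 changed by 0.89 (exact permutation p = 0.1).

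**Figure D3:**
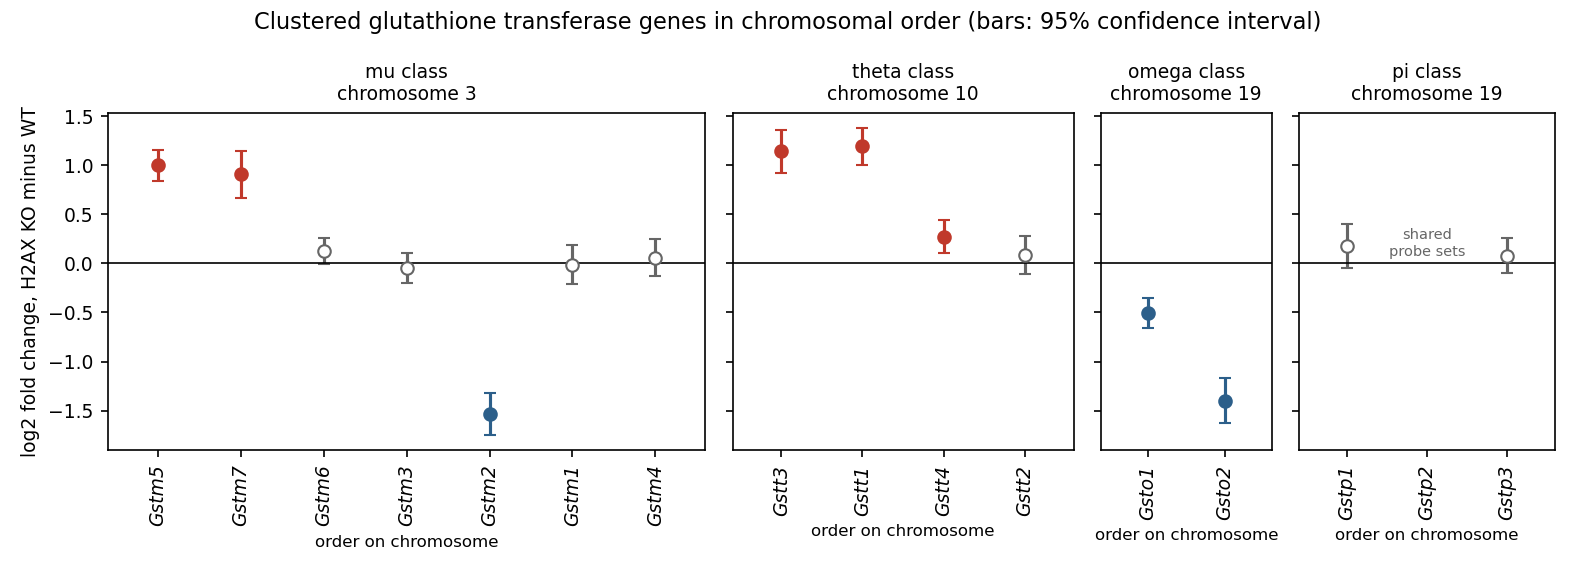
Log2 fold change of H2AX KO minus WT MEFs (y axis) for clustered glutathione transferase genes in their order along the chromosome (x axis), 1 panel for each class, with bars for the 95% confidence interval from limma and filled points for genes that passed the test. In the mu class Gstm5 and Gstm7 lie at 1.00 and 0.91 and Gstm2 at -1.53, in the theta class Gstt3 and Gstt1 lie at 1.14 and 1.19, and both omega genes lie below 0.

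Genes that make and use glutathione were examined beside its transferases. Of 17 measured genes of glutathione synthesis and recycling, 6 were higher in KO cells, 2 were lower and the other 9 were not called. For comparison, 33.4% of all genes were called, 18.4% higher and 15% lower. The median change of the list was 0.09 on the log2 scale. Slc7a11, which imports cystine for glutathione synthesis, had log2 values of 8.50 to 8.81 on the KO arrays, against 7.26 to 7.35 on the WT arrays, and a log2 fold change of 1.35 (limma, adjusted p = 1.1e-06). Chac1, which degrades glutathione, was higher by 1.24 (adjusted p = 2.8e-06), and its relative Chac2 was lower, at -0.55 (adjusted p = 0.019), a call lost without WT replicate 2 or 3 and with the unmoderated ANOVA (adjusted p = 0.163). Gsr, which regenerates reduced glutathione, was higher by 0.55 and Gclm, the modifier subunit of the first synthetic enzyme, by 0.36 (adjusted p = 0.0074, and 0.067 with the unmoderated ANOVA), whereas the catalytic subunit Gclc had 0.14 (adjusted p = 0.13). The study reported less Gclc transcript by real-time PCR and less GCLC protein in KO MEFs. These arrays showed no fall of Gclc, with log2 values of 9.44 to 9.49 in KO cells, against 9.26 to 9.37 in WT cells. The cause of the difference from the study's values was not tested. The lower count of this list was 1 without KO replicate 2 or 3 and 0 without WT replicate 2 or 3.

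Downstream of conjugation, 17 genes of export and of mercapturate formation were measured, of which 5 rose, 3 fell and 9 did not pass. Among all genes, 18.4% were called higher and 15% lower. Abcg2, a pump for conjugates and drugs, was lower at a log2 fold change of -1.26 (limma, adjusted p = 4.0e-05), and Cndp2, a dipeptidase for the cysteinylglycine left by conjugates, at -1.27 (adjusted p = 1.4e-05). Anpep, a surface peptidase of the same step, had the largest rise of the list at 0.57, and Abcc1, the main exporter of glutathione conjugates, had 0.18 (adjusted p = 0.058, and 0.026 with array medians centred). The higher count was 3 without KO replicate 2 or without WT replicate 1 or 2, and 2 without KO replicate 3.

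Upstream of conjugation, 15 oxidising and reducing enzymes were measured, with 3 higher, 4 lower and 8 that did not pass. The shares over all genes were 18.4% higher and 15% lower. Cyp1b1, a cytochrome P450 that makes reactive products from aromatic compounds, was higher by 1.27 (limma, adjusted p = 3.6e-07), whereas the quinone reductases Nqo2 and Nqo1 were lower, at -1.65 (adjusted p = 2.8e-06) and -1.40 (adjusted p = 6.4e-07). Of 16 genes that regulate glutathione transferases, 3 rose, 3 fell and 10 did not pass, where 33.4% of all genes were called in either direction. Nfe2l2, which encodes NRF2, was lower at -1.27 (adjusted p = 4.1e-06). Keap1, which holds NRF2 down, had -0.03 (adjusted p = 0.792) and turned to 0.01 when array medians were centred. Pparg, a nuclear receptor, was higher by 1.07 (adjusted p = 4.5e-06) and Ahr, the receptor of aromatic pollutants, by 0.56. The lower transcripts of Nfe2l2 and Nqo1 stood beside 3 higher and 3 lower genes among the 10 transferases. Gclc, which the study names with Nqo1 as a target of NRF2, did not pass the test, at 0.14, so these targets did not change alike. Slc7a11, Gsr and Gclm of the glutathione list were higher, at 1.35, 0.55 and 0.36. In KO MEFs the study reported less NRF2 protein and a weaker signal of an ARE reporter. NRF2 activity was not measured on these arrays, and whether the 10 genes depend on it in these cells was not tested.

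**Figure D4:**
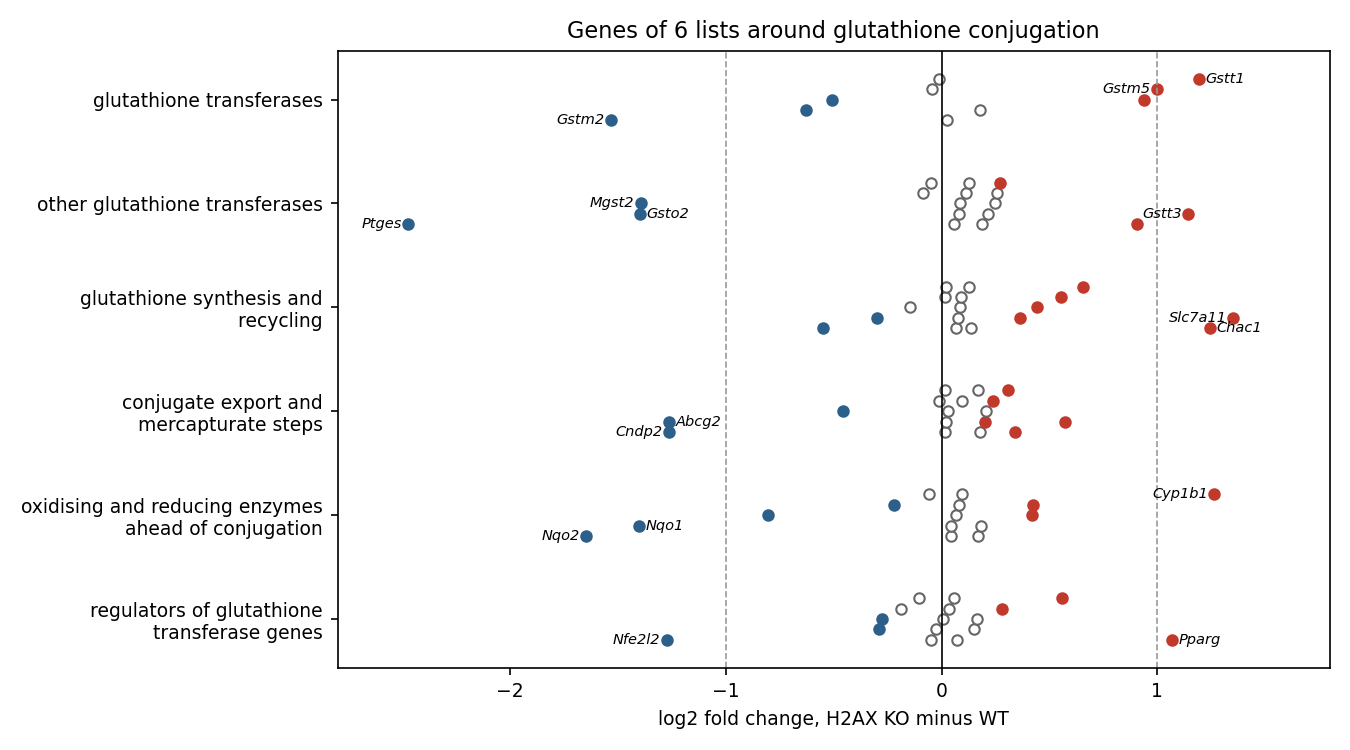
Log2 fold change of H2AX KO minus WT MEFs (x axis) for each measured gene of 6 lists around glutathione conjugation, 1 row a list and 1 point a gene. Points are filled where limma called the gene (red, higher in KO; blue, lower in KO), dashed lines mark a 2-fold change, and genes past it are named; every list holds filled points on both sides of 0.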

How the data were processed

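Total RNA of MEFs was labelled with biotin and hybridised to 6 Affymetrix Gene ST arrays, 3 of H2AX KO and 3 of WT cells, grouped by the submitters' titles. Scans were turned into CHP files in Expression Console and normalization was done in Partek 6.6, as stated by the authors and their notes to GEO. What the authors deposited is on the log2 scale, with 35556 probe sets ranging between 2.94 and 13.7. How background was corrected and which normalization was used is not given in the sources used here, and normalized values do not show a change in RNA content per cell. Although the methods name version 2.0 of the array, identifiers match version 1.0, and that annotation was used. Of 23410 listed probe sets, 21789 had 1 symbol, updated through gene identifiers where possible (21698), and 1621 had several and were left out, as were 12146 not listed. A gene with several probe sets (999 genes) took the one with the highest mean over the 6 arrays.

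KO and WT arrays were compared with limma 3.58.1 in R 4.3.3 (lmFit and eBayes, no covariates), with Benjamini-Hochberg adjustment over 19938 genes, after a check on simulated data. The number of arrays limits the precision. The 10 genes and all lists were chosen with earlier results of these data known. Named were every member, every measured relative, H2ax, and from the other lists the genes past a 2-fold change and the largest rise and fall; Gclc, Gclm, Gsr, Abcc1, Keap1 and Ahr were named after their values were seen. Neighbouring genes were compared through the difference of their log2 values within each array, with an exact permutation test (scipy 1.17.1). Promoters are RefSeq windows of GRCm38.p6. Fits were repeated with replicate number as a block, without each array, with the methods' one-way ANOVA (no moderation), with a trended and robust variance prior, after quantile normalization or median centring, after a filter on low means, after averaging probe sets, and with a 2-fold threshold.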

Additional observations from a re-analysis of the deposited data

How the results depend on the processing

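The 10 transferase genes kept the same calls under the 13 alternatives to the fit and the values, also when any single array was left out. The filter on low means removed Gsta3, Gstt1 and Mgst1, which leaves 2 higher and 3 lower of 7 tested. The log2 fold change ranged over these alternatives between -1.61 and -1.43 for Gstm2, between 1.14 and 1.26 for Gstt1 and between 0.95 and 1.05 for Gstm5. Signs turned for genes with a change near 0. Gstm1 had 0.027 with median centring, and it lay between -0.0741 and 0.0896 when single arrays were left out, Gsta3 between -0.00985 and 0.058, Gstm3 between -0.0742 and 0.0032 and Gstm4 between -0.0015 and 0.14. Gstm3 was at 0.0536 as the mean of its probe sets, and Keap1 at 0.0104 with median centring. With a fold change over 2 in addition, 422 genes were higher and 634 lower over all genes. Of the 10 transferases, 2 were higher and 1 was lower. Among relatives 1 was higher and 3 were lower, and among genes of synthesis and recycling 2 were higher and 0 lower. Export genes numbered 0 higher and 2 lower, upstream enzymes 1 higher and 2 lower, and regulators 1 higher and 1 lower. When single arrays were left out, relatives called higher numbered between 2 and 5, genes of synthesis and recycling called lower between 0 and 3, and genes of export called higher between 2 and 5. After removal of the 50% of genes lowest in mean, 6 relatives were tested and 1 was higher. With the unmoderated ANOVA, 0 genes of synthesis and recycling were lower and 2 of export were higher, and with median centring 1 gene of synthesis and recycling was lower. The replicate numbers did not pair the arrays, with correlations of same-numbered deviations from the genotype means of -0.293, -0.239 and 0.08. Between KO and WT arrays of different numbers these correlations ran from -0.165 to 0.32, the highest for KO replicate 2 with WT replicate 1. With the replicate number as a block, 3 genes of export were higher. The cause of these shifts was not tested.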
